A study of Mus musculus with 6 samples.

Results

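Paternally expressed imprinted genes are transcribed from the chromosome inherited from the father, while the maternal copy stays silent, in many cases under a methylation mark laid down in the egg. Mest, Peg3, Plagl1, Ndn, Magel2, Nnat, Sgce, Peg10 and Impact are genes of this kind that lie outside the Dlk1 and Igf2 clusters, and Grb10 is an imprinted gene that most mouse tissues read from the maternal copy and neurons from the paternal one. As background, several of these genes act on growth in the embryo and are expressed less after birth, and Peg3 protein (PW1) is known as a marker of satellite cells and of other progenitors in muscle. The 10 genes were found by exact gene name among the probes of the array files, which gave 19 probes for 10 of the 36406 names on the array. All 19 probes, of 55681 in all, were well above background on all 6 arrays and passed the filter on dim probes.

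Satellite cells, from which muscle fibres regenerate, were sorted from 3 adult samples, all of 6 months, and 3 young samples, of 3, 2 and 3 months for replicates 1, 2 and 3. All came from male mice of the strain C57BL/6, and the labels name no treatment or engineered allele. The sort kept cells with integrin alpha7 and CD34 and removed cells with CD31, CD45, CD11b or Sca1. Amplified cDNA of each sample was hybridised to its own single-colour array, and the labels give neither how many mice stood behind a sample nor whether the strand was kept. The p-values measure the spread between these 6 samples.

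The label of the cells was checked against 14 satellite cell markers, all well above background on all arrays. Of these, 5 were lower in adult and 9 did not pass the test, with a summed level of 139.0 to 181.8 in adult and 197.6 to 212.6 in young (linear, relative to the 75th percentile of the array). Of all genes, 6.83% were lower by the same test. Across the 48404 probes tested, 2 arrays of the same age correlated at 0.938 to 0.952 and 2 arrays of different ages at 0.837 to 0.924. Adult arrays had 47554 to 49957 probes well above background, and young arrays had 41528 to 45926. Levels are given as log2 of the processed signal relative to the 75th percentile of the same array. Differences are adult minus young on that scale, with limma p-values adjusted over all 48404 probes and a threshold of 0.05, and a gene with several probes is called by its brightest. On this scale the median probe was itself higher in adult, by 0.29.

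Adult satellite cells had less Mest, Grb10 and Sgce than young ones, and the other 7 genes did not pass the test. The differences were negative for 8 of the 10 genes and positive for Magel2 and Peg10. By limma 0 of the 10 genes were higher in adult, also at an unadjusted p under 0.05, where 5 genes were lower. Over all 32103 genes taken by their brightest probe, 24.7% passed, with 6.83% lower and 17.8% higher in adult. Of the 19 probes 5 were lower, against 6.39% of all probes lower and 23.4% passing. The share of lower genes grew with the signal. Among the 25% of genes with the brightest probes, which held Mest, Peg3, Plagl1, Sgce, Impact and Grb10, 15.4% were lower and the median difference was -0.31. Among the next 25%, with Ndn and Nnat, 8.67% were lower, and among the next, with Magel2 and Peg10, 2.65%. Among the dimmest 25%, which held no member, 0.635% were lower. The median differences in these dimmer classes were -0.05, 0.56 and 1.44, in the same order. From the brightest to the dimmest 25%, 732 of 8026, 1044 of 8025, 1653 of 8026 and 2301 of 8026 genes were higher in adult. The median over the 10 genes was -0.72, and over all genes 0.31. The 3 adult and 3 young values did not overlap for 12 of the 19 probes, which is also the case for 52.6% of all probes. In bulk samples, fewer cells of a type and less RNA per cell cannot be told apart.

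**Figure D1:**
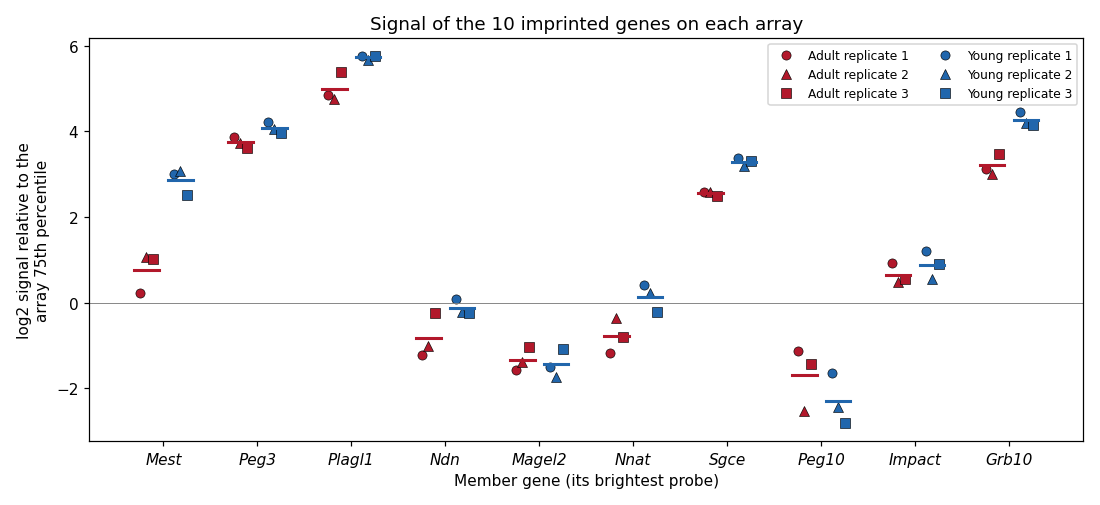
Log2 signal relative to the array's 75th percentile (vertical axis) for the brightest probe of each gene (horizontal axis), with adult arrays in red on the left, young arrays in blue on the right, 1 symbol per array and a bar at the group mean. All adult arrays lie below all young arrays for 7 genes, Mest, Sgce, Grb10, Peg3, Plagl1, Nnat and, narrowly, Ndn, while Magel2, Peg10 and Impact overlap. Of the 7, only Mest, Sgce and Grb10 passed the test. Heights of different genes come from different probes and are not comparable.

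The sequences before the starts of Mest and Grb10 are shown because these genes had the largest differences, and each has more than 1 annotated start. They are the 250 bases before the start, 5′ to 3′ on the gene's strand, from RefSeq on GRCm38.p6, with CG dinucleotides, the sites that imprint methylation uses, in capitals. Windows of 7 of the 10 genes were used, and none of Sgce, Peg10 or Impact.
Mest, upstream start, chr6:30733256-30733505, plus strand: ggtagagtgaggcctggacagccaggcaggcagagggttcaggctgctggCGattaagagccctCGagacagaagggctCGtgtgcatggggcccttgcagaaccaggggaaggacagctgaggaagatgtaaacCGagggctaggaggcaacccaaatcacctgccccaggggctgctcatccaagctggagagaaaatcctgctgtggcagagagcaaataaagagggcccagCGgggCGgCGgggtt
Mest, downstream start, chr6:30737800-30738049, plus strand: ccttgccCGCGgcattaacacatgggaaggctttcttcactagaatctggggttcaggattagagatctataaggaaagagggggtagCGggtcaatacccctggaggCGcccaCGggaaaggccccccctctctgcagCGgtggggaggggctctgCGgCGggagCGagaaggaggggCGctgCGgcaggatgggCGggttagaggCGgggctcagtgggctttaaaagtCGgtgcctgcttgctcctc
Grb10, upstream start, chr11:12037421-12037670, minus strand: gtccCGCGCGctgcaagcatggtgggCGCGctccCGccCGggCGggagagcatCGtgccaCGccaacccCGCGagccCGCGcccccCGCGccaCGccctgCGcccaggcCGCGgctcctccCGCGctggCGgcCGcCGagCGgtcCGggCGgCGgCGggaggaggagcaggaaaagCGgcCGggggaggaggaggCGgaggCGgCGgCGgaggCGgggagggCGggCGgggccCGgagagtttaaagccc
Grb10, downstream start, chr11:12027972-12028221, minus strand: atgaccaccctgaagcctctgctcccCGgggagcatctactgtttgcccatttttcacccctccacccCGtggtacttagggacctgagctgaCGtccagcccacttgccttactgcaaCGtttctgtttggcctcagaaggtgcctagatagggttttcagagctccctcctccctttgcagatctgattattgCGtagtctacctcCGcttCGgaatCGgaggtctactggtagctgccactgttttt
The upstream Grb10 window held 40 CG, which 1.31% of the 32851 windows in the table reached or passed. The downstream Grb10 window held 8, the downstream Mest window 14 and the upstream Mest window 7, against a median of 6 over all windows. Over the 10 windows of these 7 genes, 3 of them at Mest, the median was 10 CG. The Mest windows from 30737800 and from 30737803 overlap almost fully, with 14 CG each, so that stretch is counted more than once in this median. The motif GGGGCCCC, a known binding sequence of Plagl1 that reads the same on both strands, was in 1 of the 10 windows, that of Peg3, and in 0.889% of all windows. The arrays do not tell which start a transcript came from.

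Mest, also known as Peg1, encodes a membrane protein of the hydrolase fold that is abundant in growing embryonic mesoderm. Its brightest probe, on mm9 chromosome 6 from 30697385 to 30697444, read 0.22, 1.07 and 1.01 on adult arrays 1, 2 and 3, against 3.00, 3.07 and 2.51 on young arrays 1, 2 and 3. Every adult array lay below every young array, and adult array 1 was the lowest. The means were 0.77 ± 0.48 in adult and 2.86 ± 0.31 in young (SD, n = 3 each), a 4.27-fold lower signal in adult (log2 difference -2.09 ± 0.31 SE, limma adjusted p = 0.0207). The second probe, from 30692160 to 30692219, read -0.18, 0.52 and 0.77 in adult and 2.86, 2.83 and 2.40 in young (difference -2.32 ± 0.31 SE, adjusted p = 0.0180). The third probe, from 30698279 to 30698338, read -1.01, -0.02 and -0.01 in adult and 1.99, 2.07 and 1.81 in young (difference -2.30 ± 0.32 SE, adjusted p = 0.0192). The 3 probes thus gave the same order of groups and put adult array 1 lowest each time.

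The third Mest probe was printed as 10 spots on every array. After spots marked as outliers were left out, 10 spots remained on each adult array and 9, 8 and 7 on young arrays 1, 2 and 3. The SD between spots of 1 array was 0.093, 0.075 and 0.059 on adult arrays 1, 2 and 3, and 0.054, 0.033 and 0.033 on young arrays 1, 2 and 3. The SD between the adult samples was 0.58 and between the young samples 0.14. The highest adult spot was at 0.060 and the lowest young spot at 1.78.

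**Figure D2:**
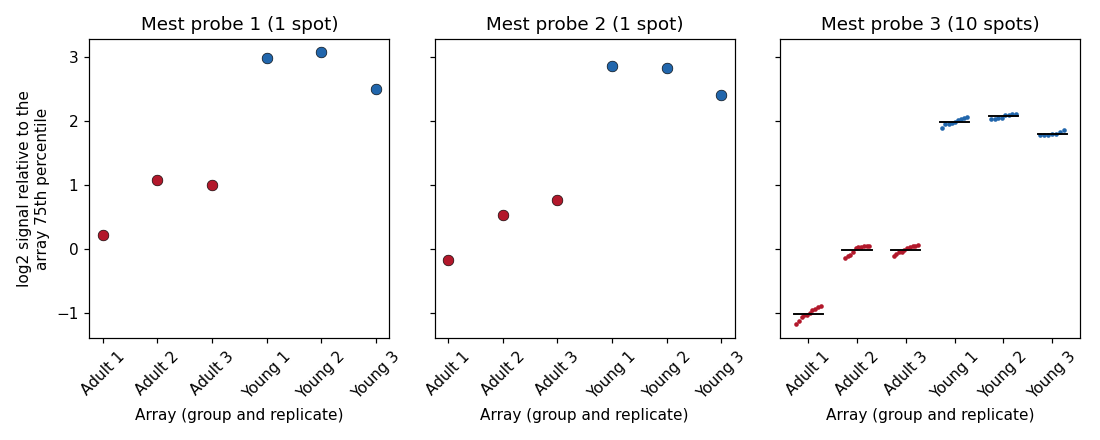
Log2 signal relative to the array's 75th percentile (vertical axis) of the 3 Mest probes on each array (horizontal axis), adult in red and young in blue; in the right panel each small point is 1 spot, sorted by value, and the line is the mean of the spots. In all 3 panels every adult value lies below every young value, and adult array 1 is the lowest.

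Whether Mest passed depended on which sample was left out. It stayed past the threshold without young replicate 2 (adjusted p = 0.0218) and without young replicate 3 (0.0402), and did not without young replicate 1 (0.0569) or without adult replicates 1, 2 and 3 (0.0556, 0.0566 and 0.0685). The difference lay between -2.27 and -1.82 in these 6 fits. Over all probes 11344 passed with 6 samples. Between 388 and 2460 passed with 1 sample left out, except without young replicate 2, where 10343 did.

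Mest shares its locus with the coatomer gene Copg2, whose annotated 3′ end overlaps it by 913 bases on GRCm38.p6. The nearer Copg2 probe lay 152 bases beyond the third Mest probe on mm9 and was lower in adult (difference -0.84 ± 0.20 SE, limma adjusted p = 0.0376). The brighter Copg2 probe did not pass (-0.69 ± 0.20 SE, adjusted p = 0.0542). The strand is not given, so reads of the overlap cannot be assigned by strand. Copg2 was picked out after its values were seen. The microRNA gene Mir335 lies inside Mest, on GRCm38.p6 chromosome 6 from 30741299 to 30741396, and was not analysed here.

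Grb10, an adaptor protein that binds the insulin and IGF1 receptors and dampens their signal, was 2.09-fold lower in adult. Its single probe, on mm9 chromosome 11 from 11833165 to 11833224, read 3.12, 3.01 and 3.48 on adult arrays 1, 2 and 3 and 4.46, 4.19 and 4.15 on young arrays 1, 2 and 3. The groups did not overlap, with means of 3.20 ± 0.25 in adult and 4.27 ± 0.17 in young (SD, n = 3 each; difference -1.06 ± 0.22 SE, limma adjusted p = 0.0300). Of the 6 fits without 1 sample, it passed the one without young replicate 2 (adjusted p = 0.0438), and in the other 5 the adjusted p lay between 0.0639 and 0.0793. Its difference lay between -1.20 and -0.96 in all 6 fits. With the array row on the slide as a block it did not pass (adjusted p = 0.0537).

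Of 14 measured genes that act with Grb10 in insulin and IGF signalling, 3 were lower in adult and 11 did not pass. The median was -0.37. Over all genes 24.7% passed, with 6.83% lower. Among the 25% of genes with the brightest probes, 15.4% were lower and the median was -0.31. Nedd4, a ubiquitin ligase that binds Grb10, was 1.87-fold lower (difference -0.91 ± 0.19 SE, limma adjusted p = 0.0300). The kinases Akt1 and Map2k1 were 2.16-fold and 1.97-fold lower (adjusted p = 0.0279 and 0.0331). Akt2, another kinase of that family, did not pass by its brightest probe (-0.62 ± 0.18 SE, adjusted p = 0.0536), while its other probes gave -0.69 and -0.78 (0.0495 and 0.0454).

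Sgce encodes epsilon-sarcoglycan, a membrane protein related to the sarcoglycans of the dystrophin complex, and it was 1.67-fold lower in adult. Its probe, on mm9 chromosome 6 from 4639584 to 4639643, read 2.58, 2.58 and 2.49 in adult and 3.38, 3.19 and 3.30 in young. The groups did not overlap, at 2.55 ± 0.05 in adult and 3.29 ± 0.10 in young (SD, n = 3 each; difference -0.74 ± 0.18 SE, limma adjusted p = 0.0370). It did not pass with any of the 6 samples left out (adjusted p from 0.0590 to 0.0959), with a difference between -0.79 and -0.69, nor with the array row as a block (0.0672). In 3 of 7 scalings of the arrays it passed, with a difference from -1.28 to -0.42.

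Peg10 starts 101 bases from Sgce on the opposite strand of GRCm38.p6, and the methylated region they share makes both paternal. It derives from a retrotransposon and encodes gag-like and pol-like proteins needed in the placenta. Its brighter probe read -1.12, -2.52 and -1.44 in adult and -1.65, -2.44 and -2.80 in young (difference 0.60 ± 0.47 SE, limma adjusted p = 0.344). Its other probe read -1.36, -1.83 and -2.05 in adult and -3.75, -2.87 and -2.01 in young (difference 1.13 ± 0.47 SE, adjusted p = 0.113). The groups overlapped on both probes. The 95% interval of the brighter probe ran from -0.54 to 1.75, and that of Sgce from -1.17 to -0.31. Peg10 minus Sgce within each array was -3.70, -5.11 and -3.93 in adult and -5.03, -5.63 and -6.10 in young. That difference between groups gave p = 0.2 in a two-sided exact permutation test. With 3 against 3 samples the smallest p of that test is 0.1. The pair was chosen after its values were seen, and it sets a dimmer probe against a brighter one. Median differences were 0.56 among all genes in the signal class of Peg10 and -0.31 in that of Sgce. Whether the pair differed beyond this was not tested. Among 12 measured gag-like relatives of Peg10, 1 passed, Pnma2, which was 2.02-fold higher (adjusted p = 0.0425). Of all genes 17.8% were higher and 6.83% lower. Zcchc5, Cxx1b and Zcchc16 differed by -1.03, -0.67 and 1.0 without passing (adjusted p = 0.0522, 0.0554 and 0.0628).

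Plagl1 (Zac1) encodes a zinc finger protein that slows the cell cycle and acts on other imprinted genes. Its brightest probe, on mm9 chromosome 10 from 12850832 to 12850891, read 4.84, 4.75 and 5.39 in adult and 5.76, 5.67 and 5.75 in young. Adult values lay below young values without overlap, but the difference did not pass (-0.73 ± 0.23 SE, limma adjusted p = 0.0640, unadjusted p = 0.0196). Its 4 probes lie within 2.92 kb. The probe from 12851280 read 4.19, 3.86 and 4.54 in adult and 5.16, 4.88 and 4.95 in young, and the probe from 12848421 read 4.14, 4.40 and 4.59 in adult and 4.88, 4.78 and 4.82 in young. On both probes all adult values again lay below all young values. The probes from 12851280 and from 12848421 differed by -0.80 ± 0.24 SE and -0.45 ± 0.20 SE (adjusted p = 0.0574 and 0.132), and the probe from 12848851 by -0.17 ± 0.18 SE (0.479), where values of -0.44, -0.45 and -0.32 in adult and -0.27, -0.33 and -0.10 in young overlapped. The brightest probe minus this last one gave 5.28, 5.20 and 5.71 in adult and 6.03, 6.00 and 5.85 in young. That pair, chosen after its values were seen, did not overlap between groups and had the smallest exact permutation p possible, 0.1.

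Peg3 encodes a zinc finger protein of the p53 and TNF pathways. Its brighter probe, on mm9 chromosome 7 from 6661407 to 6661466, read 3.88, 3.73 and 3.62 in adult and 4.22, 4.07 and 3.97 in young. Both groups were tight (SD 0.13 each), the values did not overlap, and the difference of -0.34 ± 0.19 SE did not pass (limma adjusted p = 0.197). Its other probe differed by -0.33 ± 0.21 SE (adjusted p = 0.246), with adult values of 2.10, 1.77 and 1.61 and young values of 2.22, 2.13 and 2.13. These differences are close to the median of -0.31 among the 25% brightest genes. The 95% interval of the brighter probe ran from -0.80 to 0.11.

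Ndn and Magel2 are MAGE family genes that lie 27.1 kb apart in the Prader-Willi region of chromosome 7. Ndn (necdin), which holds cells out of the cycle and promotes differentiation, read -1.22, -1.03 and -0.25 in adult and 0.08, -0.23 and -0.24 in young. Adult array 3 came within 0.01 of the lowest young array, and the difference of -0.70 ± 0.30 SE did not pass (limma adjusted p = 0.125). Magel2, which works with a ubiquitin ligase in protein recycling, read -1.58, -1.38 and -1.03 in adult and -1.51, -1.73 and -1.09 in young (0.12 ± 0.26 SE, adjusted p = 0.742). The Magel2 groups overlapped, with a 95% interval from -0.52 to 0.75, and its difference was negative under quantile normalization, median scaling, cyclic loess, normexp and the series matrix values (-0.42 to -0.09). Magel2 minus Ndn within each array was -0.36, -0.36 and -0.78 in adult and -1.59, -1.51 and -0.85 in young. This pair, chosen after its values were seen, had the smallest exact permutation p possible, 0.1. Median differences were 0.56 among all genes in the signal class of Magel2 and -0.05 in that of Ndn. Of 11 measured MAGE relatives and partners, 2 were lower: Ngfr, a neurotrophin receptor that necdin binds (2.13-fold, adjusted p = 0.0296), and Trp53, which encodes p53 (1.95-fold, adjusted p = 0.0384). Of all genes, 6.83% were lower. Maged1, another MAGE gene, and Vps35, of the retromer that Magel2 acts on, did not pass (-0.70 ± 0.21 SE and -0.67 ± 0.21 SE, adjusted p = 0.0578 and 0.0616).

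Nnat encodes neuronatin, a small membrane proteolipid of the endoplasmic reticulum, and its 2 probes disagreed. The brighter, on mm9 chromosome 2 from 157387696 to 157387755, read -1.17, -0.36 and -0.81 in adult and 0.40, 0.22 and -0.23 in young (difference -0.91 ± 0.29 SE, limma adjusted p = 0.0673). The other, 222 bases further on, read -1.25, -0.58 and -0.65 in adult and -0.77, -1.10 and -1.35 in young (0.24 ± 0.28 SE, adjusted p = 0.512). The first probe separated the groups and the second did not. The first minus the second was 0.08, 0.23 and -0.15 in adult and 1.17, 1.31 and 1.12 in young, with the smallest exact permutation p possible, 0.1. These 4 within-array comparisons (with Peg10 and Sgce, the Plagl1 probes, and Magel2 and Ndn) were chosen after the values were seen. Adjusted over the 4, the p of the Nnat, Plagl1 and Magel2 pairs was 0.133. That adjustment does not cover the other pairs that could have been chosen.

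Impact encodes a protein that restrains the stress kinase Gcn2 and so keeps translation going. Its brighter probe read 0.92, 0.48 and 0.56 in adult and 1.20, 0.56 and 0.90 in young (difference -0.23 ± 0.25 SE, limma adjusted p = 0.493). Its other probe read 0.09, 0.00 and 0.28 in adult and 0.36, 0.23 and 0.03 in young (-0.08 ± 0.20 SE, adjusted p = 0.758). The groups overlapped on both probes, and the 95% intervals ran from -0.84 to 0.38 and from -0.56 to 0.40.

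**Figure D3:**
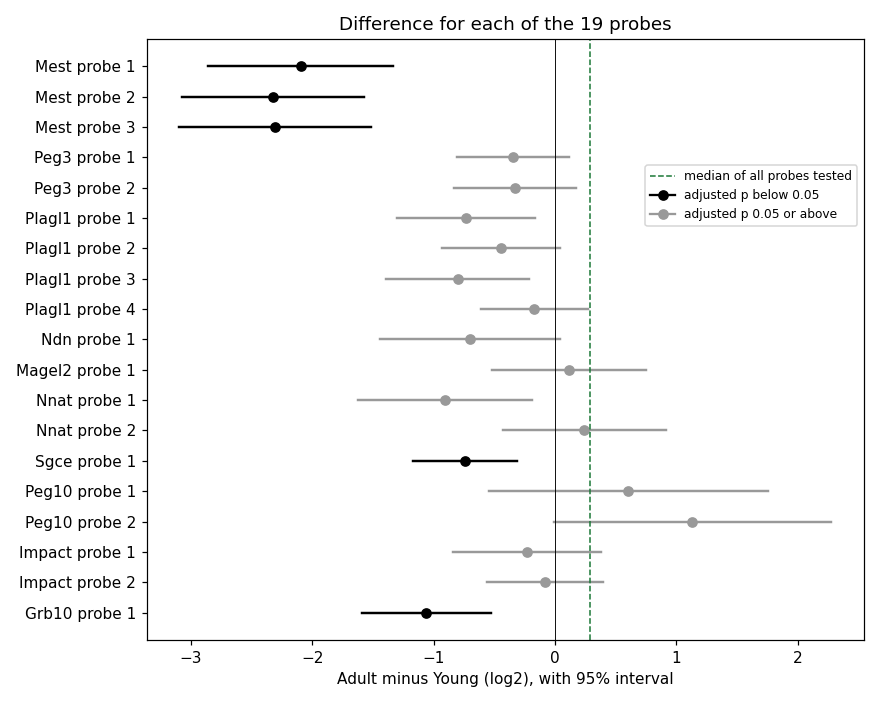
Adult minus young difference (horizontal axis, log2) with its 95% interval for each of the 19 probes (vertical axis), numbered from bright to dim within a gene; black marks probes past the threshold, grey the others, and the dashed line the median of all probes at 0.29. The 3 Mest probes stand furthest to the left, and the Nnat probes lie on either side of 0.

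The youngest sample, young replicate 2, was taken at 2 months. It lay between the adult mean and the mean of the other young samples for 5 of the 10 genes. Over all probes tested, this sample correlated with the adult arrays at 0.895 to 0.924. Young replicate 1 did so at 0.861 to 0.896 and young replicate 3 at 0.837 to 0.878. For each adult array, young replicate 2 was thus the most similar young array, although it was the youngest. For Mest its brightest probe was the highest of all 6 arrays. Adult SDs were above young SDs for 13 of the 19 probes, and the SDs ran from 0.05 to 0.87.

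The size of the differences depended on how the arrays were scaled. Over the 7 scalings the median of all probes ran from -0.25 to 0.43. Normexp with quantile normalization and the series matrix values are both among the 7. They matched each other, so they are not separate scalings. Mest ran from -2.63 to -1.82 and passed in all 7, and Grb10 ran from -1.60 to -0.85 and passed in 6. Relative to the median of all probes, Mest lay between -2.38 and -1.78 and Grb10 between -1.35 and -0.78. Plagl1, Ndn and Peg3 each passed, of these 7, only with median scaling, and Nnat passed in 3. With median scaling 17032 of all 48404 probes passed, against 11344 as reported. Peg10 was positive and Impact negative in all 7, without passing.

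**Figure D4:**
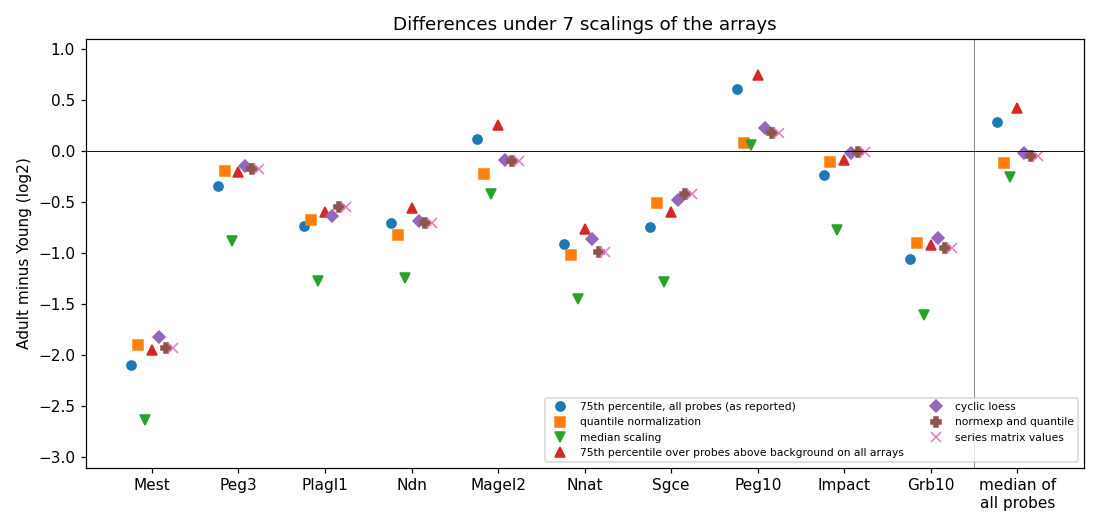
Adult minus young difference (vertical axis, log2) of each gene's brightest probe under 7 scalings of the arrays (symbols), with the median of all probes at the right. Mest lies between -2.63 and -1.82 in each, while Magel2 changes sign.

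Of 21 measured genes that neighbour the members in imprinted regions, 2 were lower, 2 were higher and 17 did not pass, with a median of -0.11. Of all genes 24.7% passed, with 6.83% lower and 17.8% higher. Zim2, next to Peg3, was at least 2.87-fold higher and Pon1, a paraoxonase near Peg10, at least 1.83-fold higher. These are the 2 higher genes, and neither was well above background in young samples, so they were tested only because of their adult signal and had to differ. Ppp1r9a, near Peg10, was 2.08-fold lower (limma adjusted p = 0.0404). Ddc, next to Grb10, was 2.63-fold lower by its brighter probe, while its other probe was higher by 1.52 (adjusted p = 0.0294 and 0.0197).

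Of 22 measured imprinted genes at other loci, 2 were lower, Cdkn1c and Dlk1 (differences -3.95 and -2.40, limma adjusted p = 0.00894 and 0.0164), 2 were higher, Dio3 and Kcnk9 (0.90 and 2.67, adjusted p = 0.0329 and 0.0462), and 18 did not pass. Of 14 genes that keep imprints in place, 1 passed, Tet1, an enzyme that oxidises methylated cytosine (-0.81 ± 0.19 SE, adjusted p = 0.0354), although another Tet1 probe differed by 0.04 ± 0.21 SE. Uhrf1, which guides the methylation of newly copied DNA, differed by -1.86 ± 0.57 SE (adjusted p = 0.0580), Dnmt3l, a cofactor of new methylation, by 1.23 ± 0.35 SE (0.0511) and the zinc finger gene Zfp445 by -0.71 ± 0.23 SE (0.0695). Over all these lists, counting each gene once, 18 of 101 genes passed, 11 lower and 7 higher, with Zim2 and Pon1 among the 7. Of all genes 6.83% were lower and 17.8% higher. The count of 18 changed with the processing, up to 63 with median scaling. Of all 48404 probes, 17032 passed with that scaling and 11344 as reported.

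The genes whose pattern over the 6 arrays was most like that of Mest were H13, Mtss1l and Tdrd3 (Pearson r of 0.999, 0.998 and 0.998 among 18007 named probes). Those most like Grb10 were Rnf115, Vps29 and Tusc3 (0.998, 0.997 and 0.997). Their differences were -0.83, -1.43 and -0.54 for the genes like Mest and -1.12, -0.65 and -0.95 for those like Grb10, with a sign that the choice by likeness fixes.

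Markers of differentiating muscle were mostly lower in adult, as Mest, Grb10 and Sgce were. Those of mural cells, leukocytes and adipocytes that passed were mostly higher. Of all genes 17.8% were higher and 6.83% lower. Higher genes were most common among dim ones, with 2301 of 8026 in the dimmest class and 732 of 8026 in the brightest. Whether the markers differed from other genes of like signal was not tested. Of 12 genes of myogenic commitment 7 were lower, Myog the most (-5.24 ± 0.28 SE), and 1 was higher, with a summed level of 28.2 to 35.5 in adult and 81.4 to 113.1 in young, Cdkn1c included (linear, relative to the 75th percentile). Of 13 fibro-adipogenic markers 3 were higher and 1 was lower, with sums of 41.5 to 58.4 in adult and 98.5 to 123.0 in young, of which Col3a1 alone made up 19.9 to 38.0 in adult and 60.1 to 69.8 in young. Pdgfra was not well above background in any sample. Of 4 tendon markers 1 was lower, with sums of 1.96 to 4.09 in adult and 4.68 to 9.38 in young. Of 10 mural cell markers 4 were higher and 1 was lower, with sums of 314.7 to 390.3 in adult and 259.0 to 354.2 in young, mostly Mcam, which did not pass, at 242.9 to 313.6 in adult and 175.6 to 272.3 in young. Of 7 adipocyte markers 4 were higher, with sums of 5.57 to 18.9 in adult and 8.33 to 11.7 in young, of which Fabp4, which did not pass, made up 2.28 to 15.4 in adult and 6.52 to 10.2 in young. Lep was not well above background in any sample. Of 12 leukocyte markers 4 were higher, with sums of 379.5 to 403.7 in adult and 220.0 to 426.1 in young, nearly all of it Itgam (CD11b), which did not pass, at 365 to 390.3 in adult and 210.4 to 415.4 in young. Tyrobp, among the 4, was not well above background in young samples, so it was tested only because of its adult signal and had to differ. Of 10 endothelial markers 1 was higher, with sums of 19.6 to 26.6 in adult and 19.7 to 29.9 in young, mostly Tek, which did not pass, at 12.7 to 17.99 in adult and 13.3 to 20.7 in young. By limma 0 of the 6 Schwann cell markers passed (1 at an unadjusted p under 0.05), with sums of 28.2 to 47.9 in adult and 39.5 to 56.6 in young. The part of these cells in the differences of the imprinted genes was not tested.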

How the data were processed

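Per the file headers, the scanner images were quantified by Feature Extraction 10.7.3.1, and the deposited intensity values are the background-subtracted, detrended signal with no scaling between arrays, beside the mean signal and local background. The deposited series matrix holds log2 values with no stated method; they matched normexp (offset 50) with quantile normalization of the mean and background signals. Positions of probes are on mm9. The 3671 control spots and outlier spots were left out and spots of 1 probe averaged on the log2 scale, which left 55681 probes. A probe was tested if at least 3 arrays had it well above background. The 3 adult and 3 young samples were set against each other in limma 3.58.1 (R 4.3.3), with Benjamini-Hochberg adjustment over all probes, and the fit was tested on simulated data. A group with no array well above background has only a bound, set against the lowest signal well above background. All arrays share 1 slide. The number of arrays limits the precision. The members, gene lists and tests were chosen with earlier results of these data known. Genes named are all 10 members, up to 4 of each list with the smallest adjusted p, and, for the 2 members with the smallest adjusted p, the 3 most correlated named genes; other probes of these genes, Copg2, Mir335, Pdgfra, Lep, Fabp4, Itgam, Mcam and Tek fall outside that rule, Copg2 chosen for its values. Results of the sarcoglycan list are counted in the total of listed genes and not reported singly here. Alternatives covered scaling, background, the filter on dim probes, 1 probe per gene, moderation, array row, the replicate number and leaving out each sample.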

Additional observations from a re-analysis of the deposited data

How the results depend on the processing

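As reported, 3 of 10 member genes, 5 of 19 member probes and 18 of 101 listed pathway genes passed. In the same order, median scaling gave 7, 13 and 63, trend and robust moderation 5, 9 and 45, and probes above background on all arrays only, which tests fewer probes, 5, 8 and 36. Cyclic loess gave 1 gene and 3 probes, as did array row as a block, where Grb10 and Sgce did not pass, and 1 probe per gene in the fit gave 3 probes, since it holds no other probe, and 30 pathway genes. Normexp and the series matrix values gave 31 pathway genes each. Counts over all probes changed too. Of 48404 probes, 11344 passed as reported, 17032 with median scaling, 16450 with trend and robust moderation and 6538 with array row as a block. With normexp 11714 passed. Cyclic loess passed 6302 of 48378, the filter on all arrays 11497 of 38123, and 1 probe per gene 9143 of 32103. Leaving out 1 sample gave 0 to 2 genes, 0 to 4 probes and 1 to 16 pathway genes. Deviations from the group mean did not correlate positively between samples with the same number (-0.0086, -0.087 and -0.13). With 3 samples in each group this cannot tell whether the numbers name pairs. Under the replicate block, limma called 0 genes, 0 probes and 0 pathway genes (5, 8 and 36 at an unadjusted p under 0.05), with 0 calls over all 48404 probes and an adjusted p of 0.0712 for Mest. Magel2 differed by 0.12 as reported. It was negative at -0.22 after quantile normalization, -0.42 after median scaling, -0.088 with cyclic loess, -0.094 with normexp and with the series matrix values, -0.034 with array row as a block, -0.033 without adult replicate 3 and -0.027 without young replicate 2, in a range up to 0.29 with 1 sample left out; it passed in no setting. For these changes the cause was not tested. By their brightest probes, the other 9 genes kept their direction in all 18 alternatives. The filters on dim probes, 1 probe per gene, moderation and the replicate block leave a probe's difference as it is. Its sign could not change there. The second Nnat probe had the opposite sign as reported (0.24). All 19 member probes were well above background.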
